A study of Mus musculus with 16 samples.

Results

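The genes described here encode the route by which islet cells take up glucose, break it down to pyruvate and burn the pyruvate in mitochondria. They were chosen by name as members of glycolysis, the lactate and shuttle reactions, pyruvate entry, the TCA cycle and the pyruvate cycling steps, and all 42 chosen genes were found among the 54146 genes of the tables. All 42 were also among the 15204 protein-coding genes tested after a filter on low and invariant counts. RNA-seq was carried out on whole islets of 26-week-old mice, all fed a high-fat diet, from the 8 founder strains 129 (129S1_SvImJ), AJ (A_J), B6 (C57BL/6J), CAST (CAST_EiJ), NOD (NOD_ShiLtJ), NZO (NZO_HlLtJ), PWK (PWK_PhJ) and WSB (WSB_EiJ). The 91 libraries comprised 10 of 129, 14 of AJ, 18 of B6, 14 of CAST, 10 of NOD, 4 of NZO, 5 of PWK and 16 of WSB. Both sexes were present in each strain, with 3 females and 1 male in NZO and 1 female and 4 males in PWK. No treatment or engineered allele separated the groups.

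Total expected counts per library, the read counts that RSEM estimates for each gene, ranged from 16928552 to 35196145. Beta cell markers summed to 166444 to 572292 TPM per library, a unit scaled for transcript length and library size. Acinar markers, from the surrounding exocrine tissue, summed to 1485 to 268990 TPM. Sex-linked genes went against the sex label in 12 of the 91 libraries, among which were 6 from 129, 4 from WSB and 2 from NOD. All libraries of 129, NOD, NZO and PWK carried running numbers above those of the other strains, so these strains and their number range cannot be told apart. The labels mention waves of collection but do not assign libraries to them, nor do they state that each library came from a different mouse. P-values therefore measure the spread between libraries, and in whole islets fewer cells of a type and less RNA per cell cannot be told apart.

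In glycolysis, hexokinases trap glucose in the cell as a phosphate ester, and a chain of enzymes ends at pyruvate kinase. In beta cells pyruvate is passed mainly to mitochondria rather than to lactate. There pyruvate dehydrogenase feeds the TCA cycle and pyruvate carboxylase refills it. The shuttles carry the reducing power of cytosolic NADH into mitochondria, and the ATP made from it closes the KATP channel, which starts insulin secretion. Lactate dehydrogenase and low-Km hexokinases are known to be kept low in beta cells.

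On the TPM scale, which allows levels of different genes to be compared, the members were mostly abundant. Pkm, the pyruvate kinase of most tissues, had the highest mean at 308 TPM ± 59.7 (SD, n = 91), followed by the aldolase Aldoa at 269 TPM ± 52.3. Hk2, a low-Km hexokinase, had the lowest mean at 1.06 TPM ± 1.04. The malic enzyme Me3 at 3.62 TPM ± 2.03 and the glucose transporter Slc2a1 at 5.73 TPM ± 3.26 were also low. The mitochondrial members were of middle to high level. The 10 TCA cycle members had means from 19.3 TPM (Idh3a) to 105 TPM (Mdh2), and the 7 pyruvate entry members had means from 18.3 TPM (Dlat) to 50.8 TPM (Pdhb).

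The first comparison asked whether the members differ between strains. All 42 members did (edgeR's quasi-likelihood test, adjusted p-values up to 0.0106, for Dld), but so did 97.4% of all tested genes, so the count itself sets the members apart from nothing. In size the median difference of the members was below that of all genes, and no test of this was run. The fitted log2 difference between the highest and the lowest strain had a median of 0.53 over the 42 members and of 0.87 over all tested genes. It was at least 1 for 12 members, whereas 44.9% of all genes reached 1. The share of variance that lay between strains went the other way, with a median of 60.4% for the members and 50.9% for all genes. The narrowest members were Dld at 0.20, the TCA cycle subunit Ogdh at 0.21 and Dlat at 0.23, all parts of the large dehydrogenase complexes. The widest were Eno1b at 7.23, Hk2 at 4.14, Gapdh at 3.52 and Eno1 at 3.01.

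Of the members, 12 were higher in 1 strain than in each of the other 7, a call made for 25.8% of all genes. Also 12 members were lower in 1 strain than in each of the other 7, a call made for 21.7% of all genes. The strain-high calls were Slc2a1, Gpi1, Cs and Mdh2 in NOD, Pgam1 and Fh1 in AJ, Eno1 and Pdha1 in B6, Mpc1 and Idh3g in WSB, Aldoc in CAST and Tpi1 in PWK. The strain-low calls were Aldoc, Eno1, Got1, Got2 and Idh3b in PWK, Hk2, Tpi1, Pgk1 and Suclg1 in 129, Pfkm in NOD, Eno1b in B6 and Mpc2 in CAST. PWK was the lowest strain for 14 of the 42 members, and it was lowest for 16.5% of all genes. NOD was the highest strain for 11 members and for 23.6% of all genes. Strain-low calls fell on PWK for 5 members and 4.61% of all genes, and on 129 for 4 members and 0.927% of all genes. Asking in addition for a log2 difference of at least 1 from each other strain left 1 strain-high member (8.54% of all genes), Eno1 in B6, and 3 strain-low members (4.32% of all genes), Hk2 in 129, Aldoc in PWK and Eno1b in B6. Without the 12 libraries that went against their sex label, 14 members were strain-high (20.3% of all genes) and 8 strain-low (18.3% of all genes), and 10 and 8 of the calls above were kept. None of the 4 strain-low calls of 129 remained then, and among the strain-high calls those of Mdh2 in NOD and Mpc1 in WSB were lost. Of the 12 strain-high and 12 strain-low calls, 5 and 3 were kept on the log2(TPM + 1) scale, 6 and 7 with the libraries of each sample summed, and 3 and 9 with acinar and immune marker sums as covariates. All were kept with a term for library numbers 34 to 65, but such a term cannot adjust the 15 of the 24 calls that fell on 129, NOD or PWK.

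**Figure D1:**
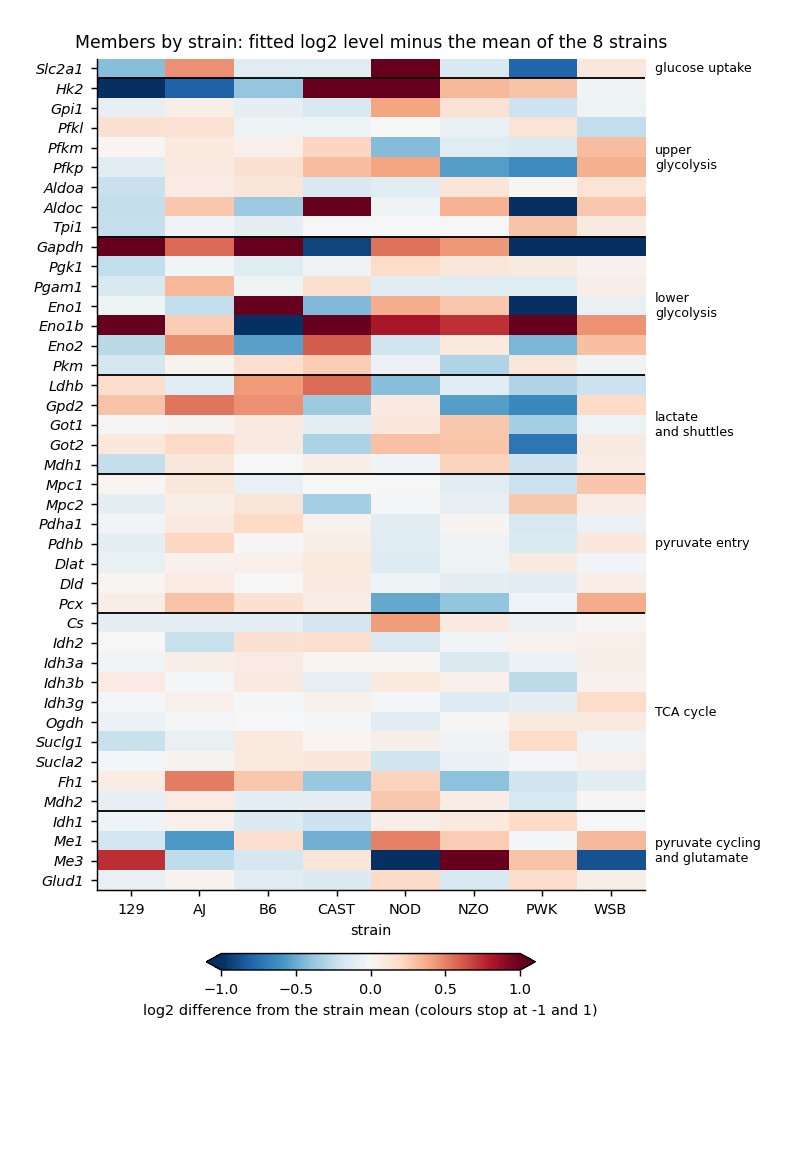
Each row is 1 of the 42 members, grouped by role, and each column is a strain. Colour gives the fitted log2 level minus the mean of the 8 strains, and colours stop at -1 and 1. Most TCA cycle and pyruvate entry rows are pale, and the strongest colours lie in Slc2a1, Hk2, Aldoc, Gapdh, Eno1, Eno1b and Me3.

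Gapdh, the dehydrogenase at the start of lower glycolysis, is used as a reference gene in many assays, and it had the third widest range of the members. Its normalized counts, scaled for library size, had medians of 4552 in B6 (2362 to 5903), 4155 in 129 (3161 to 5566), 2313 in NOD (1745 to 2702), 2272 in AJ (1881 to 2740), 2038 in NZO (1905 to 2480), 555 in PWK (308 to 668), 489 in CAST (286 to 1759) and 380 in WSB (171 to 600). B6 and 129 did not overlap with PWK, CAST or WSB. Within WSB the 7 libraries numbered up to 32 had 171 to 345 and the 9 later ones 378 to 600. The log2 difference of B6 minus WSB was 3.52 (SE 0.18, adjusted p = 2.15e-30, edgeR). Gapdh (chromosome 6 of GRCm38, 125161715 to 125166467) has many processed pseudogenes, reverse-transcribed copies of its mRNA elsewhere in the genome. Of all 100-base words in the annotated Gapdh transcripts, 20.9% also occurred in transcripts of 86 other genes. Of these, 50 were pseudogenes that held at least 1% of the Gapdh words, and they are called its copies here. The protein-coding genes RP23-288O12.2 (12.8%), RP23-255D19.1 (8.57%) and Vmn2r60 (1.41%) also held that much and are not counted as copies. Their mean expected counts were 0.122, 17.4 and 0. The reads were about 100 bases long, as the lengths and effective lengths in the tables show.

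The stretches printed next, from the GENCODE M21 transcripts, show how alike the copies are in the reference sequence, which is that of B6. Over the 999 coding bases of Gapdh, the copy Gm7336 on chromosome 7 differed at 0 bases, Gm13394 on chromosome 2 at 1 base and Gm3272 on chromosome 8 at 4 bases. The Gapdh stretch lies in coding exon sequence at chr6:125163310-125163409 on the minus strand. The same 100 bases stand at chr7:51746747-51746846 (Gm7336, plus strand) and at chr2:28934460-28934559 (Gm13394, minus strand). The stretch of Gm3272 is at chr8:92716779-92716878 on the minus strand, and capitals mark the 2 bases at which it differs from Gapdh.
Gapdh, Gm7336 and Gm13394: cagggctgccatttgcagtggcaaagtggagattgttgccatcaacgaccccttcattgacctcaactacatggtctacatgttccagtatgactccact
Gm3272: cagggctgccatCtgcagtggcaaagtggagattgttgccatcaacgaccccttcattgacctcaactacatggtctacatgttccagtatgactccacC

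The copies held most of the counts in several strains, and a different copy led in different strains. In WSB, Gm7336 held 93.6% to 98.1% of the summed expected counts of Gapdh and its 50 copies, and in CAST it held 78.5% to 95.2%. In PWK it held at most 0.919%, while Gm3272 held 88.5% to 94.6%, against at most 1.10% in every library of the other strains. In AJ, NOD and NZO, Gm13394 held 48.9% to 61.6%, against at most 1.84% elsewhere. Gapdh itself held 27.8% to 55.2% in B6 and 42.2% to 55.1% in 129, but 1.51% to 5.56% in WSB. Within CAST the share of Gapdh was 15.9% to 20.5% in 5 libraries and 3.60% to 6.86% in the other 9.

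When the counts of Gapdh and its copies were added, an alternative chosen after seeing the data, the strain order changed and the range narrowed. The summed normalized counts had medians of 11455 in NOD, 10741 in WSB, 10122 in NZO, 9870.5 in AJ, 9460.1 in B6, 9028 in 129, 8379 in CAST and 7509 in PWK. Over all 91 libraries they ran from 6918 to 14983. The widest log2 difference of the sum was NOD minus PWK at 0.62 (SE 0.08, adjusted p = 1.13e-10, edgeR), and B6 minus WSB was -0.16 (adjusted p = 0.00295, edgeR), the opposite direction to that of Gapdh alone. Within NOD the sum moved with markers of immune cells, from 9084 in the library with the lowest marker sum to 14983 in that with the highest. Reads that lie wholly in shared stretches carry no mark of the gene they came from. How the division of such reads between copies depends on each strain's own sequence was not tested.

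**Figure D2:**
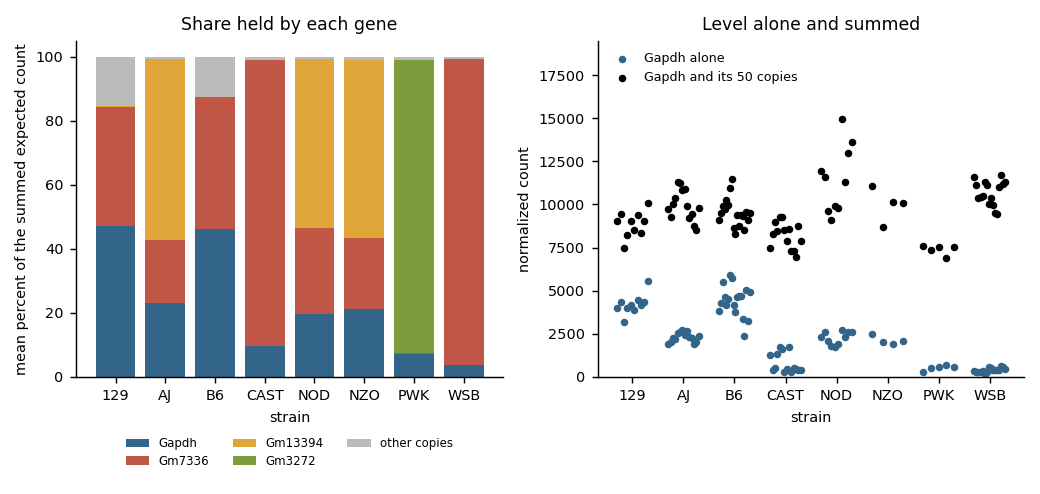
The left panel stacks the mean percent of the summed expected count held by Gapdh, 3 of its copies and the remaining copies in each strain. The right panel plots the normalized count of Gapdh alone (blue) and of Gapdh with its 50 copies (black), with 1 point per library. Gapdh alone is below 700 in WSB and PWK, whereas the summed level is at least 6918 in every library.

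The enolase genes showed the same pattern. Eno1 (chromosome 4, 150236721 to 150248879) encodes the enolase of most tissues, and Eno1b is a near-identical gene elsewhere in the genome that is annotated as protein-coding. Of the 100-base words of Eno1b, 74.7% were shared with other genes, and of those of Eno1, 20.4%. Eno1 had a median of 3273 normalized counts in B6 (2707 to 3544), 417 in CAST (317 to 1568) and 404 in PWK (305 to 452), and in the other 5 strains it ran from 785 to 2336. Eno1b had a median of 13.6 in B6 (0 to 44.01), and in the libraries of the other strains it ran from 801 to 2601. The B6 libraries lay above all others for Eno1 and below all others for Eno1b. The log2 difference of B6 minus PWK was 3.01 for Eno1 (SE 0.27, adjusted p = 5.01e-17), and that of PWK minus B6 was 7.23 for Eno1b (SE 0.23, adjusted p = 3.65e-46, edgeR).

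A further processed copy, Gm4735 on chromosome 2, differs from the 1302 coding bases of Eno1 at 5 bases in the reference sequence. The stretches below are those of Eno1 at chr4:150246619-150246718 and of Gm4735 at chr2:80837857-80837956, both on the plus strand. Capitals mark the 2 bases at which Gm4735 differs from Eno1.
Eno1: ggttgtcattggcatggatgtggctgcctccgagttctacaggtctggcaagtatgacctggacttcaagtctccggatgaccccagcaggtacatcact
Gm4735: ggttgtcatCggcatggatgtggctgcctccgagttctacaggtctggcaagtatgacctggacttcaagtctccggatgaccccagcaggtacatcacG

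In B6, Eno1 held 97.8% to 99.9% of the summed expected counts of Eno1, Eno1b and their copies. In 129, AJ, NOD, NZO and WSB it held 31.3% to 38.8%, and in PWK 9.785% to 14.0%. Gm4735 held 16.2% to 31.4% in AJ, CAST, NOD, NZO, PWK and WSB, up to 6.14% in 129 and up to 0.960% in B6. Within CAST the split took 2 separate values, since Eno1 held 43.2% to 46.4% in 6 libraries and 9.405% to 11.6% in the other 8, with 3 females in each. All 6 libraries with the higher share were numbered from 2 to 8, while the other 8 comprised numbers 1 and 6 and all those from 34 to 39. Only 2 CAST libraries were in the higher set for both Eno1 and Gapdh. The summed count did not separate in this way, and ran from 2528 to 3943 over the 14 CAST libraries.

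The sum of Eno1, Eno1b and their copies had medians between 2586 in AJ and 3876 in NOD. The widest log2 difference was NOD minus AJ at 0.61 (SE 0.08, adjusted p = 1.53e-10, edgeR). Within NOD this sum, too, moved with the immune markers, from 2466 in the library with the lowest marker sum to 6468 in that with the highest. B6 minus PWK, 3.01 for Eno1 alone, was -0.06 for the sum (adjusted p = 0.6249, edgeR). With only Eno1 and Eno1b summed, and Gm4735 left out, it was 0.33 (adjusted p = 0.00492, edgeR), B6 was still higher than each other strain and AJ was lower than each other strain. With the sums in place of Gapdh, Eno1 and the other 9 members with such copies, 11 of the 12 strain-high calls and 10 of the 12 strain-low calls were kept. The calls lost were Eno1 in B6 and PWK and Eno1b in B6, genes that were then counted as 1 sum.

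**Figure D3:**
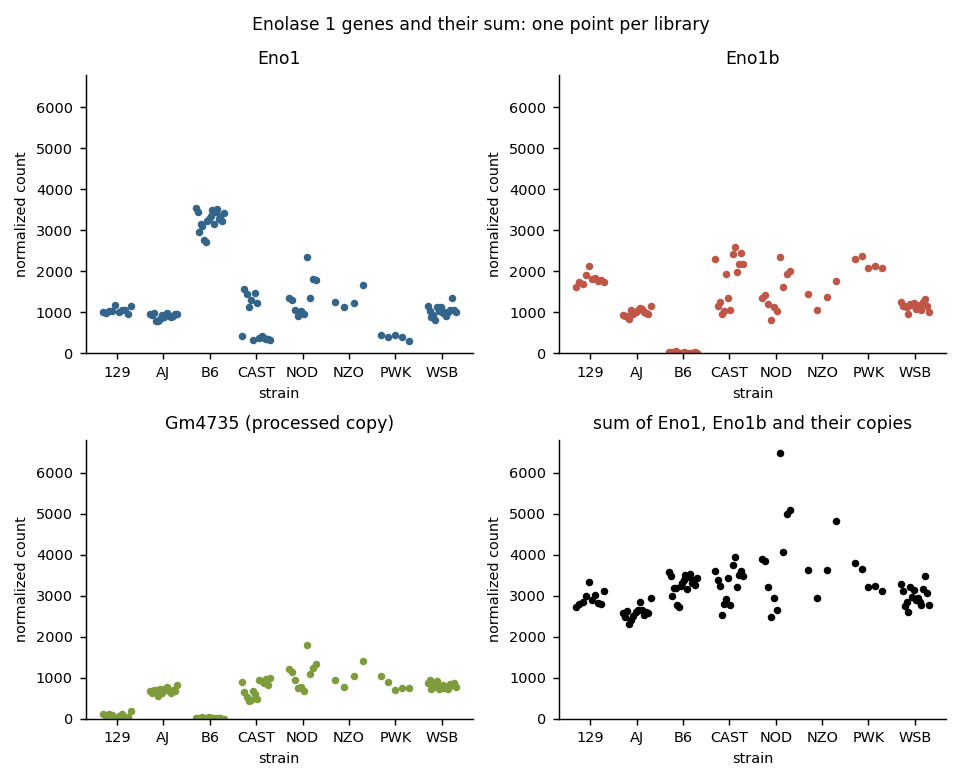
Each point is a library, grouped by strain, with the normalized count of Eno1, Eno1b, the copy Gm4735 and the sum of these genes in 4 panels on 1 scale. B6 stands apart for Eno1 and Eno1b, is near 0 with 129 for Gm4735 and lies among the other strains in the sum, and CAST shows 2 separate groups of libraries for Eno1.

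Of all 42 members, Gapdh, Eno1 and Eno1b included, 20 shared at least some 100-base words with another gene and 22 shared none. Got2, the mitochondrial aspartate aminotransferase of the malate-aspartate shuttle, shared 14.1% of its words with other genes. Whether the division of reads between copies changed its strain differences was not tested. The Got2 copy Got2-ps1 had mean expected counts of 370 in PWK, 205 in CAST and 185 in WSB and at most 1.61 in the other strains. Got2 alone was lowest in PWK, with 1048 to 1209 normalized counts and a log2 difference of NOD minus PWK of 1.01 (SE 0.08, adjusted p = 3.79e-18, edgeR). With the copy added this was 0.58 (SE 0.07, adjusted p = 1.46e-12, edgeR), and PWK was still lower than each other strain. A long non-coding RNA gene on chromosome 5, RP24-95J4.2, held more of the Got2 words (9.78%, against 8.83% for Got2-ps1). It had a mean expected count of 65.7 over all libraries and was not part of this sum. In the NOD libraries with the lowest and the highest sum of immune markers, Got2 alone had 2060 and 2635 normalized counts. Pgk1 and Pgam1 share many words with copies, but these copies held few counts, at most a mean of 29.5 for Pgk1-rs7 in NZO and 21.6 for Pgam1-ps2 in PWK.

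Among glucose uptake and upper glycolysis genes, Slc2a1, the transporter GLUT1, had medians of 696 normalized counts in NOD (434 to 991), 413 in AJ (317 to 718) and 202 in PWK (145 to 240). NOD minus PWK was 1.84 on the log2 scale (SE 0.19, adjusted p = 1.46e-13, edgeR). NOD and PWK did not overlap, whereas NOD overlapped with AJ. Within AJ the level followed the library number range, with 377 to 718 in the 8 libraries numbered up to 32 and 317 to 413 in the 6 later ones.

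Hk2 had medians of 264 normalized counts in NOD (152 to 369), 167 in CAST (33.4 to 313) and 12.5 in 129 (4.35 to 30.3), and the other 5 strains had medians between 34.2 and 69.9. NOD minus 129 was 4.14 on the log2 scale (SE 0.50, adjusted p = 1.99e-11, edgeR). The 129 libraries lay below all NOD and CAST libraries. Hk2 varied widely within strains, from 11.04 to 181 in B6, and in B6 it moved with the acinar markers. The 3 B6 libraries with the most Hk2, from 149 to 181, had acinar marker sums of 156442 to 268990 TPM, and the other 15 had at most 134713 TPM. These sums were 5736 to 49583 TPM in 129 and 23156 to 250152 TPM in NOD. In NOD, Hk2 was 264 in the library with the lowest acinar sum, 23156 TPM, and 268 in that with the highest, 250152 TPM. The NOD library with the most Hk2, at 369, had 221899 TPM, and that with the least, at 152, had 73956 TPM. Over all 91 libraries the correlation of Hk2 with the acinar marker sum was 0.63 on log2 scales. With the acinar and immune marker sums as covariates NOD minus 129 was 2.41 (adjusted p = 0.00118, edgeR).

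Aldoc, the aldolase best known from brain, had a median of 415 normalized counts in CAST (275 to 699) and of 75.6 in PWK (55.4 to 111). The log2 difference was 2.59 (SE 0.21, adjusted p = 3.75e-19, edgeR). All PWK libraries lay below all CAST libraries. In CAST the 8 libraries numbered up to 32 had a median of 625 and the 6 later ones 335. Aldoa, at a far higher level in TPM, differed by 0.36 at most (WSB minus 129, SE 0.05, adjusted p = 1.66e-10, edgeR).

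**Figure D4:**
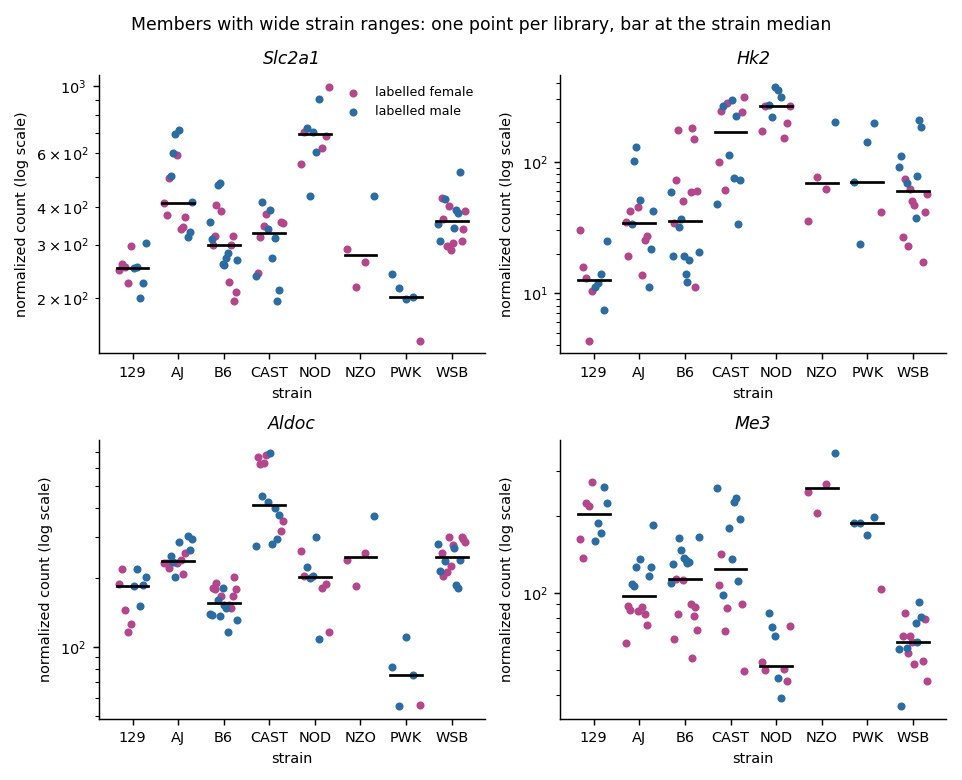
Each point is a library and the bar is the strain's median, with normalized counts on log axes and colour for the labelled sex. Slc2a1 and Hk2 are highest in NOD, Aldoc is highest in CAST and lowest in PWK, and Me3 is highest in NZO and lowest in NOD and WSB.

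The phosphofructokinase subunits, which form the committed step of glycolysis, did not share a strain order. Pfkm, the muscle-type subunit, was lower in NOD (median 1209, 665 to 1655) than in each other strain, with a log2 difference of WSB minus NOD of 0.74 (SE 0.07, adjusted p = 2.94e-17). Pfkp was highest in NOD and lowest in PWK, by 1.03 on the log2 scale (SE 0.20, adjusted p = 5.19e-06). Pfkl was highest in 129 and lowest in WSB, by 0.39 (SE 0.05, adjusted p = 9.87e-10, edgeR). Tpi1, the triose-phosphate isomerase, was higher in PWK (2624 to 2989) and lower in 129 (1816 to 2135) than in each other strain. Their log2 difference was 0.51 (SE 0.05, adjusted p = 8.51e-15, edgeR).

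In lower glycolysis beyond Gapdh and the enolase 1 genes, Eno2, the neuronal and endocrine enolase, shared no 100-base words with other genes. It had medians of 3389 normalized counts in CAST (2835 to 4151), 3104 in AJ (2767 to 3711) and 1550 in B6 (1242 to 1726). The log2 difference of CAST minus B6 was 1.15 (SE 0.07, adjusted p = 4e-26, edgeR), and B6 overlapped with neither CAST nor AJ. Pgam1, the phosphoglycerate mutase, was higher in AJ (4216 to 5343) than in each other strain. Within AJ it separated by library number, with 4900 to 5343 in the 8 libraries numbered up to 32 and 4216 to 4680 in the 6 later ones. The 8 CAST libraries numbered up to 32 had 4145 to 4975. Pgk1, the phosphoglycerate kinase, was lower in 129 (1845 to 2523) than in each other strain. Pkm differed by 0.55 at most (CAST minus NZO, SE 0.08, adjusted p = 4.44e-09, edgeR).

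Of the shuttle genes, Gpd2, the mitochondrial enzyme of the glycerol phosphate shuttle, had the widest range. Its medians were 1964.5 normalized counts in AJ (1545 to 2411), 1914 in B6 (1417 to 2598), 989 in CAST (764 to 1597), 986 in NZO (766 to 1049) and 900 in PWK (745 to 964). AJ and B6 lay above NZO and PWK in every library. AJ minus PWK was 1.18 on the log2 scale (SE 0.13, adjusted p = 9.48e-13, edgeR), and 1.00 with the acinar and immune marker sums as covariates (adjusted p = 4.63e-08, edgeR). Got1, the cytosolic partner of Got2, was also lowest in PWK (499 to 599). NZO minus PWK was 0.61 on the log2 scale (SE 0.09, adjusted p = 1.49e-08, edgeR). Got1 was lower in PWK than in each other strain, as Got2 was, but the call of Got1 was lost with sums per sample, and those of both genes were lost on the log2(TPM + 1) scale. Ldhb, the lactate dehydrogenase subunit of oxidative tissues, was highest in CAST and lowest in NOD, by 0.98 (SE 0.10, adjusted p = 2.6e-14, edgeR).

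Among the pyruvate entry genes pyruvate carboxylase had the widest range, followed by the carrier genes Mpc2 at 0.61 and Mpc1 at 0.49 on the log2 scale. Pcx had medians of 3938 normalized counts in WSB (3359 to 4943), 3836 in AJ (3221 to 4547), 2617 in NZO (1670.5 to 2902) and 2333 in NOD (1108 to 3054). NOD and NZO lay below WSB in every library, and the log2 difference of WSB minus NOD was 0.89 (SE 0.09, adjusted p = 2e-15, edgeR). Mpc1 and Mpc2, which together form the mitochondrial pyruvate carrier, had different extremes. Mpc1 was higher in WSB (714 to 932) than in each other strain, and Mpc2 was lower in CAST (317 to 454) than in each other strain. Pdha1, a catalytic subunit of pyruvate dehydrogenase, was higher in B6 (median 2401, 2089 to 2746) than in each other strain and lowest in PWK (median 1884, 1758 to 2108). This strain-high call of Pdha1 was lost under TMM, median-ratio size factors, either other filter, limma-voom, DESeq2, the TPM scale, a model without sex, the marker covariates and sums per sample. It was also lost when NZO replicate 1, 3 or 4 was left out. The widest log2 differences of the pyruvate dehydrogenase genes Pdha1, Pdhb, Dlat and Dld were 0.36, 0.36, 0.23 and 0.20.

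In the TCA cycle the widest member was Fh1, fumarate hydratase. It had medians of 1662 normalized counts in AJ (1457 to 2605), 954 in CAST (782 to 1237) and 949.9 in NZO (904 to 999). The AJ median was 2046 in the 8 libraries numbered up to 32 and 1583 in the 6 later ones. The AJ libraries lay above every CAST and NZO library, and the log2 difference of AJ minus NZO was 0.92 (SE 0.11, adjusted p = 9.37e-11, edgeR). Acinar marker sums were low in AJ, with a median of 5153 TPM against 78857 TPM in CAST and 66986 TPM in NZO. With the acinar and immune sums as covariates AJ minus NZO was 0.90 (adjusted p = 9.6e-09, edgeR), but AJ was no longer higher than each other strain. Cs, citrate synthase, followed at 0.62 (NOD minus CAST, SE 0.05, adjusted p = 3.6e-18, edgeR). The 3 subunits of the NAD-dependent isocitrate dehydrogenase had narrow ranges of 0.23 (Idh3a), 0.36 (Idh3b) and 0.32 (Idh3g). Idh3b was lower in PWK (999.9 to 1257) and Idh3g higher in WSB (1925 to 2271) than in each other strain. The call of Idh3b was lost without the PWK library at 999.9 and on the log2(TPM + 1) scale, and that of Idh3g on that scale, with the marker covariates and with sums per sample. Suclg1, a succinyl-CoA ligase subunit, was lower in 129 (1153 to 1326) than in each other strain, a call lost with no filter, limma-voom, the log2(TPM + 1) scale and sums per sample, and when any of 3 NZO libraries or 1 PWK library was left out.

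Of the pyruvate cycling and glutamate genes, Me3, the mitochondrial NADP-dependent malic enzyme, had medians of 256 normalized counts in NZO (206 to 353), 203 in 129 (137 to 271), 187 in PWK (103 to 197), 64.2 in WSB (36.2 to 91.9) and 51.9 in NOD (38.8 to 83.7). The libraries of NZO, 129 and PWK lay above all those of WSB and NOD. The log2 difference of NZO minus NOD was 2.30 (SE 0.20, adjusted p = 2.63e-16, edgeR). The cytosolic malic enzyme Me1 had another order, highest in NOD (median 829, 565 to 878) and lowest in AJ (median 365, 304 to 452). That difference was 1.07 on the log2 scale (SE 0.08, adjusted p = 3.66e-20, edgeR). Glud1, glutamate dehydrogenase, differed by 0.35 at most, in NOD minus NZO (SE 0.09, adjusted p = 0.00064, edgeR).

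The NOD calls moved with markers of immune cells. NOD mice are known for autoimmune infiltration of the islets. Of 13 markers of T cells, B cells and macrophages, 12 had their highest strain median in NOD, and none was at 0 in any NOD library. Their summed level was 34 to 3159 TPM in NOD with a median of 507, and at most 156 in any library of the other strains. Gpi1, glucose phosphate isomerase, had 4233 to 6091 normalized counts in NOD and 2939 to 4598 elsewhere, and 7 of the 10 NOD libraries lay above all others. For Cs the ranges were 1907 to 3550 and 1439 to 2174, and 8 NOD libraries lay above all others. Mdh2, the mitochondrial malate dehydrogenase, had 2881 to 4293 in NOD and 2296 to 3553 elsewhere, and 3 NOD libraries lay above all others. In the NOD library with the lowest marker sum, of 34 TPM, the normalized counts were 434 for Slc2a1, 4233 for Gpi1, 2169 for Cs, 2881 for Mdh2 and 1583 for Pfkm. In the NOD library with the highest, of 3159 TPM, which is 1 of the 2 NOD libraries that went against their sex label, they were 904, 6091, 3550, 4251 and 665 in the same order. Between the same 2 libraries Pfkp went from 538 to 1913, Ldhb from 335 to 202 and Pcx from 2614 to 1108, so the NOD extremes of these 3 genes moved with the markers too. With both sums as covariates CAST minus NOD was 0.76 for Ldhb (adjusted p = 0.00012) and WSB minus NOD was 0.48 for Pcx (adjusted p = 0.00138, edgeR). In that fit none of the 4 strain-high calls of NOD remained, and 5 members were strain-high instead of 12. Since 7 NOD libraries had immune marker sums above every library of the other strains, the fit cannot fully separate NOD from the marker level. Aldoc in CAST, Eno1 in B6 and Tpi1 in PWK were the 3 calls kept. Of the 12 strain-low calls 9 were kept, and Pfkm in NOD, Hk2 and Pgk1 in 129 were lost.

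**Figure D5:**
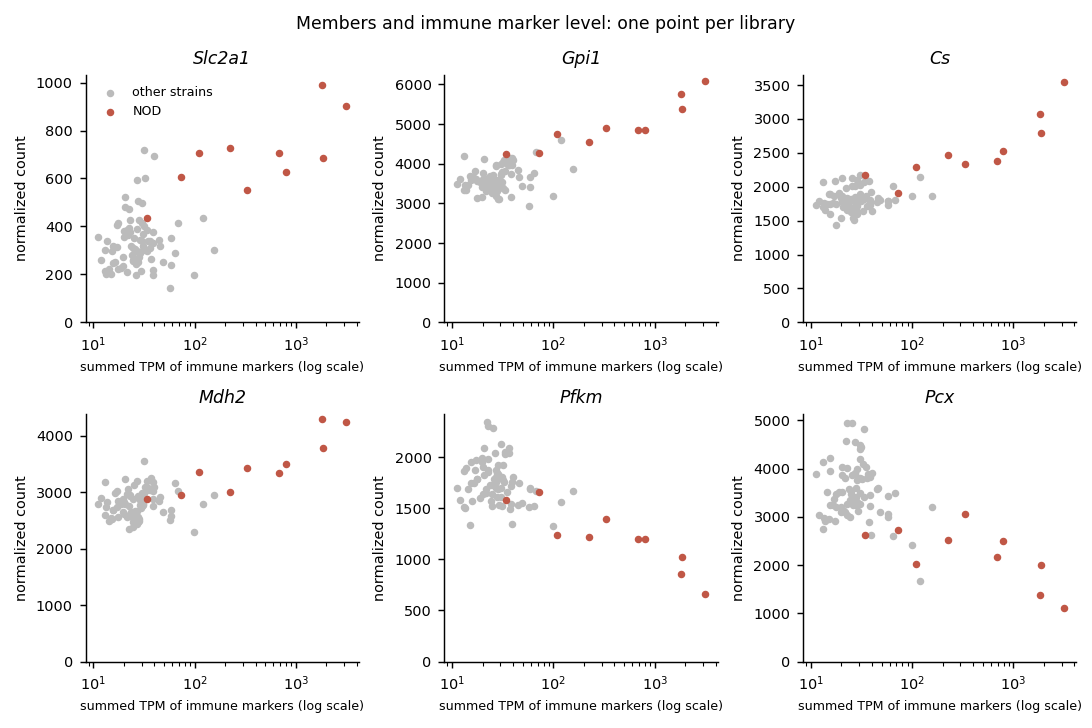
Each point is a library, with the summed TPM of 13 immune markers on a log axis and the normalized count of a member on the other, NOD in red and the other strains in grey. The NOD library with the highest marker sum has the highest counts of Gpi1 and Cs and the lowest counts of Pfkm and Pcx.

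The second comparison was between the sexes. Higher counts in males were called for 3 of the 42 members, against 2.06% of all genes, and higher counts in females for 1, against 1.95%. Me3 was higher in males by 0.49 on the log2 scale (SE 0.08, adjusted p = 2.75e-05, edgeR). In AJ the females had 63.95 to 88.7 normalized counts and the males 106 to 184, without overlap. In B6 the ranges were 55.8 to 113 and 109 to 165, and in WSB 45.2 to 83.2 and 36.2 to 91.9. Mdh1, the cytosolic malate dehydrogenase, was higher in males by 0.12 (SE 0.03, adjusted p = 0.0128, edgeR), and Ldhb by 0.19 (SE 0.05, adjusted p = 0.0205, edgeR). The call of Ldhb was lost without NOD (adjusted p = 0.0762, edgeR), where its difference between the sexes was 0.39. Idh3a was lower in males, with a log2 difference of -0.08 (SE 0.02, adjusted p = 0.0309, edgeR), a call lost without the fourth NZO library (adjusted p = 0.0639, edgeR).

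Without the 12 libraries that went against their label, the same 4 members were called, and Me3 differed by 0.66 (SE 0.07, adjusted p = 1.83e-10, edgeR). Pdhb (0.10) and Pfkm (0.08) were then also higher in males and Pfkl (-0.10) higher in females. In that fit 4.92% of all genes were higher in males and 4.87% in females. When the libraries of each of the 16 samples were summed, no member was called in either direction, nor was any other gene. At an unadjusted p under 0.05, 3 members were higher in males and 2 in females, and the difference of Me3 was 0.47 (adjusted p = 0.363, edgeR).

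The third comparison asked whether the difference between the sexes depends on the strain, in the 82 libraries of the 6 strains other than NZO and PWK. It did for 4 of the 42 members, against 5.9% of all genes. Hk2 had the smallest adjusted p-value (0.00169). Its log2 difference of male minus female was -1.76 in B6, 0.92 in AJ and 1.32 in WSB. The B6 females had a median of 59.9 normalized counts (11.04 to 181) and the males 19.3 (12.1 to 58.7), whereas the WSB females had 47.1 (17.2 to 73.5) and the males 91.2 (37.5 to 207). The part of the acinar markers, which moved with Hk2 in B6, was not tested beyond the covariate fit. For Me3 (adjusted p = 0.0305) the difference was 0.98 in CAST, 0.70 in B6 and 0.67 in AJ but -0.01 in 129, and the 129 and WSB libraries include most of those that went against their label. Without these the adjusted p-value of Me3 was 0.384. Glud1 (0.0308) and Mpc1 (0.0383) were called too, but both were lost under TMM and median-ratio size factors, and Mpc1 also with no filter, limma-voom, DESeq2 and the log2(TPM + 1) scale and without NOD. No member was called with the marker sums as covariates, where 6 had an unadjusted p under 0.05 and 0.441% of all genes were called, and 8 members were called without the 12 libraries, in a fit that called 17.6% of all genes.

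For context, 51 further genes of the same pathways were listed, among them the kinases and phosphatases of pyruvate dehydrogenase and the succinate dehydrogenase subunits, and 50 were tested. Of these, 49 differed between strains, all but Pfkfb1 (adjusted p = 0.331, edgeR), against 97.4% of all genes. Of the 50, 15 were strain-high, against 25.8% of all genes, and 8 were strain-low, against 21.7%, so these counts set the pathway genes apart from nothing. The 4 widest were Hk3 (5.69, NOD minus AJ), Fbp1 (4.12, 129 minus NZO), Hkdc1 (3.26, NZO minus 129) and Ldha (2.96, NOD minus 129). Fbp1, which runs a glycolytic step in reverse, had 742 ± 101 normalized counts in 129 (SD, n = 10) and 45.6 ± 24.6 in NZO (SD, n = 4). Hk3, the hexokinase of blood cells, had 185 ± 150 in NOD (SD, n = 10) and 3.58 ± 3.10 in AJ (SD, n = 14). Ldha, the lactate dehydrogenase subunit of glycolytic tissues, had 2205 ± 1460 in NOD (SD, n = 10) and 281 ± 86.1 in 129 (SD, n = 10). The immune marker sum had a median of 507 TPM in NOD and of at most 57.7 TPM in the other strains, and its part in the levels of Hk3 and Ldha was not tested.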

How the data were processed

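Reads had been quantified by the authors with RSEM and GENCODE vM18, and the deposited tables give an expected count and a TPM per gene. The submitters' processing notes name mm10, and the RSEM version is not given in the sources used here. Each of the 91 tables was taken as 1 library. Expected counts were rounded to whole numbers, genes other than protein-coding ones of the autosomes and X were left out, those in the lowest 10% of variance were removed, and a non-zero count in 85% of the libraries was required. The 15204 genes were tested with edgeR 4.0.16 in R 4.3.3 (quasi-likelihood, upper-quartile normalization, strain and sex), and p-values were adjusted by Benjamini and Hochberg over all genes tested in each contrast, with a threshold of 0.05. Each SE was computed from the log2 difference and its F value. The interaction was fitted over 82 libraries. Normalized counts were counts divided by the relative effective library size. At these depths 3 counts correspond to 0.0852 to 0.177 CPM, which covers counting error only. The fits were tested on simulated data. Transcripts, biotypes and coordinates came from GENCODE M21 (GRCm38), and shared 100-base words were counted in its transcripts. Copies carry its symbols, matched by identifier. Members named with values were Eno1, Eno1b, every strain-high or strain-low member, the 2 widest of each role, those called for sex or the interaction and, of other pathway genes, the 5 widest, of which 1 is not reported here; further members were named for their role after their values were seen. The members and lists were chosen with earlier results of these data known. Alternatives were TMM, median-ratio size factors, filterByExpr, no filter, limma-voom and limma 3.58.1 on log2(TPM + 1), DESeq2 1.42.0, other covariates and subsets of libraries, sums per sample, a log2 difference of at least 1, and summed copies. Figures were drawn with matplotlib.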

Additional observations from a re-analysis of the deposited data

Results flagged for a closer look

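Among the 30 members named by rule, 120 groups of 4 to 10 libraries were examined for a library far from the rest of its strain, and 2 stood out, where chance alone would flag about 1 in 20. Idh3a in 1 male-labelled library of 129 had 875.3 normalized counts, against 951 to 1034 in the other 9. That library is 1 of the 12 that went against their sex label. Idh3b in 1 library of PWK had 999.9, against 1192 to 1257 in the other 4, and without that library Idh3b was no longer lower in PWK than in each other strain.

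The difference between the sexes varied with the strain for Hk2 (adjusted p = 0.00169), Me3 (0.0305), Glud1 (0.0308) and Mpc1 (0.0383), by edgeR's test of the interaction. With limma-voom the adjusted p-value of Hk2 was 0.298, and with the acinar and immune marker sums as covariates those of the 4 members ranged from 0.110 to 0.426.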

How the results depend on the processing

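With a log2 difference of at least 1 asked for in addition, 12 members differed between strains, 1 was strain-high, 3 were strain-low, 0 were higher in males, 0 higher in females and 1 had an interaction, and 21 of the other pathway genes differed between strains. Of all genes 44.4% differed between strains, 8.54% were strain-high, 4.32% strain-low, 0.0395% higher in males, 0.0329% higher in females and 3.99% had an interaction. With limma on log2(TPM + 1) the counts were 6 strain-high, 3 strain-low, 1 higher in males, 0 higher in females and 31 with an interaction, against 17%, 9.74%, 0.164%, 0.539% and 52.9% of all genes. Of the calls in the report 5 strain-high and 3 strain-low ones were kept (Aldoc, Eno1, Fh1, Pgam1 and Slc2a1, and Aldoc, Eno1b and Mpc2), and Hk2 in NOD was added. That scale moved the median of all genes by -0.17 in CAST to 0.17 in 129 on the log2 scale. With the acinar and immune marker sums as covariates 5 members were strain-high (13.9% of all genes) and 0 had an interaction. Without the libraries that went against their sex label 5 were higher in males, 2 higher in females and 8 had an interaction. Sums per sample gave 6 strain-high members, 0 higher in males and 0 higher in females. They lost the strain-high calls of Aldoc, Pgam1, Tpi1, Mpc1, Idh3g and Pdha1, and kept 7 of the 12 strain-low calls, without Got1 in PWK and Hk2, Pgk1, Suclg1 and Tpi1 in 129. Sums of Eno1 and Eno1b alone kept all 12 strain-high calls. TMM, median-ratio size factors and limma-voom each gave 2 members with an interaction, and no filter gave 0 higher in females. Leaving out 1 library of NZO or PWK at a time gave 0 to 1 members higher in females, with 0 without NZO replicate 4 (Idh3a, adjusted p = 0.0639). Without NOD the adjusted p-value of Ldhb for sex was 0.0762. The cause of these changes was not tested.

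With copies summed, an alternative chosen after seeing the data, Gapdh in B6 minus WSB was -0.16 and Eno1 in B6 minus PWK was -0.063. Of 704 fitted differences of the 30 named members under 27 alternatives, these 2 changed direction and 14 no longer passed the test, 11 of them on the TPM scale. Of 270 with 1 library left out, 269 were kept, and Idh3a in B6 minus NZO was 0.16 (adjusted p = 0.0716) without NZO replicate 4. No paired analysis was possible because the labels give no replicate numbers that the strains share. Sums per sample leave no residual degrees of freedom for the interaction.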
